A study of Mus musculus with 8 samples.

Results

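The genes described here are 10 ligands, antagonists, receptors and targets of the bone morphogenetic protein (BMP) and activin pathways, *Bmp4*, *Inhba*, *Grem1*, *Bmpr1a*, *Bmpr2*, *Id1*, *Id2*, *Id3*, *Smad6* and *Smad7*. They were taken by gene symbol, and all 10 were among the 12160 genes of the count table. Expression was measured by 3′-end RNA sequencing (MARS-seq) in pancreatic stellate cells (PSCs), fibroblast-like cells that reside in the pancreas, here a single immortalized mouse line grown as domes in Matrigel. All domes were kept for 4 days in DMEM with 10% serum and then for 4 days in the test medium. This was medium conditioned by KPC organoids (mouse pancreatic cancer cells grown in 3D) carrying a short hairpin against *Brca2* (shBrca2-CM, 3 libraries), medium conditioned by KPC organoids carrying a control hairpin (shControl-CM, 3 libraries), or control medium (2 libraries). The titles and the study's results name the control as DMEM growth medium, and its expression analysis methods also name growth medium. The recorded treatment and the study's 3D culture methods name medium that PSCs had conditioned themselves. The control is called growth medium here. The organoid medium was based on 5% serum, so that a difference in serum cannot be told apart from the organoids' products in any comparison with growth medium.

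BMPs and activins are secreted dimers of the TGF-β superfamily that bring type I and type II receptor kinases together. BMP receptors phosphorylate SMAD1, SMAD5 and SMAD9, activin receptors phosphorylate SMAD2 and SMAD3, and both sets enter the nucleus with SMAD4. The *Id* genes and the inhibitory Smads are well-known direct targets, antagonists such as gremlin 1 and noggin bind BMPs outside the cell, and activin and BMP signalling are both studied in stellate cells for their part in fibrosis.

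The 2 growth medium libraries were the deepest, at 4623846 to 5476988 counts on genes, followed by the shControl-CM libraries at 1093609 to 1624392 and the shBrca2-CM libraries at 655996 to 1095534. Values are given as CPM, counts scaled to library size after TMM normalization over the 8 libraries, and 3 counts corresponded to 0.521 CPM in the deepest and 4.34 CPM in the shallowest library. Groups were compared in pairs by the quasi-likelihood test of edgeR, with p-values adjusted over all genes tested. DE genes are those whose adjusted p was under 0.1, whose log2 fold change exceeded 0.5 in size and whose mean normalized count exceeded 5. Of 14 fibroblast and stellate cell markers, 14 had over 3 counts in every growth medium library and 13 in every conditioned medium library, the exception being *Fap*. Their summed level was 7054 to 7984 CPM with growth medium, 5237 to 5826 CPM with shControl-CM and 5048 to 5290 CPM with shBrca2-CM, and single markers moved both ways. *Vim* and *Col1a2* were 10.4-fold and 5.59-fold lower with shControl-CM than with growth medium, and *Dcn* was 22.7-fold higher (edgeR adjusted p = 1.31e-05, 2.54e-05 and 8.34e-07). Between the conditioned media *Dcn*, *Pdpn* and *Lum* were DE and 1.91-fold, 2.10-fold and 3.01-fold lower with shBrca2-CM, and *S100a4* and *Pdgfra* were DE and 1.66-fold and 1.80-fold higher. Of 9 epithelial markers 4 were measured, and their summed level was 51.2 to 56.1 CPM with growth medium, 72.5 to 82.9 CPM with shControl-CM and 76.7 to 125 CPM with shBrca2-CM. Of these, *Krt18* and *Muc1* were DE and higher with both conditioned media, *Sox9* was DE and higher with shBrca2-CM, and *Krt19* was 9.06-fold and 2.04-fold lower with shControl-CM and shBrca2-CM than with growth medium, and 4.33-fold higher with shBrca2-CM than with shControl-CM (edgeR adjusted p = 1.98e-04, 0.00369 and 0.0632). Of 6 immune markers 2 were measured, at 7.52 to 9.04, 16.7 to 22.4 and 13.0 to 23.1 CPM in sum in the same order, and of 4 endothelial markers 2 were measured, at 3.44 to 3.48, 0 to 1.28 and 0.888 to 1.45 CPM. The part of these markers in the differences between the media was not tested.

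Most of these genes differed between either conditioned medium and growth medium, and not all in one direction. *Id1*, *Id2*, *Id3*, *Smad6*, *Smad7* and *Bmp4* were lower, and *Inhba*, *Grem1* and *Bmpr1a* were higher. The members were chosen with earlier results of these data known, so the shares of all genes beside their counts are no test. With shControl-CM 9 of 10 genes were DE, against 37.1% of all genes tested. Of them 3 were higher and 6 lower, where 18.2% of all genes were DE and higher and 18.9% DE and lower. With shBrca2-CM 9 of 10 were DE, against 37.8% of all genes, again 3 higher (18.6% of all genes) and 6 lower (19.2%). Both counts include *Bmp4*, which passed the threshold on mean normalized count only through growth medium. The library values did not overlap for 9 of 10 genes with shControl-CM and growth medium, as for 59.9% of all genes tested, and for 10 of 10 with shBrca2-CM and growth medium, as for 57.4% of all genes. The median log2 fold change of the 10 genes was -1.04 with shControl-CM and -1.51 with shBrca2-CM, and the median of all genes tested was -0.10 and -0.05. In bulk RNA, fewer cells expressing a gene and less RNA per cell cannot be told apart. Both comparisons share the growth medium libraries, so they do not bear on each other independently. Between the conditioned media only *Id3* was DE, 1 of 9 genes tested, against 3.13% of all genes. It was among the 1.55% of genes DE and lower with shBrca2-CM, and no member was among the 1.58% DE and higher. *Bmpr2*, *Id3* and *Smad7*, 3 of 9, did not overlap between the conditioned media, as 19.8% of all genes did not. With total counts in place of TMM the DE genes between the conditioned media were 250 higher and 120 lower, instead of 174 and 171, and *Id3* was still the 1 member called.

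**Figure D1:**
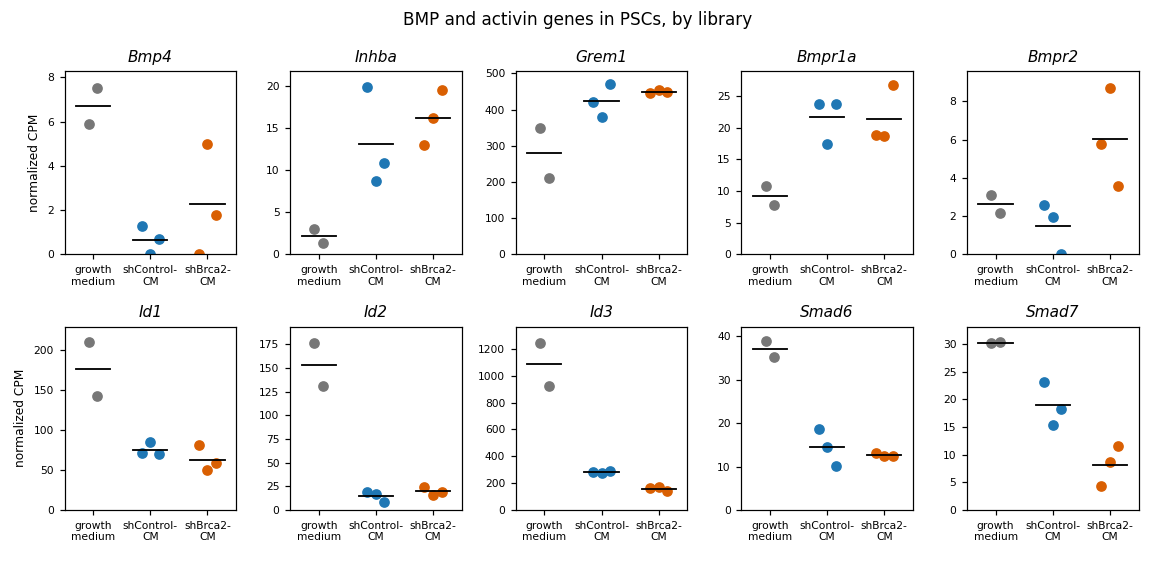
Expression of the 10 BMP and activin genes in normalized CPM (vertical axes, each from 0), with 1 point per library and the group mean as a line, for growth medium (n = 2), shControl-CM (n = 3) and shBrca2-CM (n = 3). The 5 genes of the lower row lie below growth medium in all 6 conditioned medium libraries, *Inhba*, *Grem1* and *Bmpr1a* lie above it, and the *Id3* points of the conditioned media are separate, at 144 to 172 and 273 to 294 CPM.

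Among the ligands, *Inhba*, which encodes the subunit that forms activin A, was higher with both conditioned media. It was at 2.95 and 1.29 CPM in growth medium, 19.9, 8.70 and 10.9 CPM with shControl-CM and 13.0, 16.2 and 19.5 CPM with shBrca2-CM. Every conditioned medium library was above both growth medium libraries, and the ranges of the conditioned media overlapped. Its log2 fold changes were 2.60 ± 0.50 (SE, shControl-CM, edgeR adjusted p = 0.00366) and 2.90 ± 0.41 (SE, shBrca2-CM, edgeR adjusted p = 4.92e-08), 6.06-fold and 7.46-fold over growth medium. It was not DE between the conditioned media, with a log2 difference of 0.32 and a 95% interval from -0.50 to 1.13 (edgeR adjusted p = 0.782).

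*Bmp4*, a BMP ligand that signals through BMPR1A and BMPR2, was seen by few counts, and near the floor in the conditioned medium libraries. It had 34 and 35 counts in growth medium (5.91 and 7.52 CPM), 2, 0 and 1 with shControl-CM (1.28, 0 and 0.679 CPM) and 0, 4 and 2 with shBrca2-CM (0, 4.98 and 1.78 CPM). All 6 conditioned medium libraries were below both growth medium libraries, although in the library with 4 counts the gap was small. From the summed counts, growth medium was 8.99-fold over shControl-CM (95% interval 2.95 to 44.7) and 2.90-fold over shBrca2-CM (1.27 to 8.17), intervals that cover counting error only. *Bmp4* was DE in both comparisons (edgeR adjusted p = 0.00607 with shControl-CM and 0.0334 with shBrca2-CM). It passed the threshold on mean normalized count only through the growth medium libraries. Both calls were lost without either growth medium library, with adjusted p-values of 0.0536 and 0.0713 for shControl-CM and 0.0220 and 0.0889 for shBrca2-CM, since the mean normalized count then fell below 5. With shBrca2-CM the call was also lost without replicate 1 (0.167) or replicate 3 (0.165) of that group and with DESeq2's likelihood ratio test (0.143). With 9 counts over the 6 conditioned medium libraries it was not tested between them.

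*Grem1*, which encodes the BMP antagonist gremlin 1, was higher with both conditioned media, by less than *Inhba*. It was at 349 and 211 CPM in growth medium, 420, 380 and 470 CPM with shControl-CM and 446, 453 and 449 CPM with shBrca2-CM. The conditioned medium libraries were all above growth medium replicate 1, which was itself well above replicate 2. Over growth medium, *Grem1* had log2 fold changes of 0.59 ± 0.21 (SE, shControl-CM, edgeR adjusted p = 0.0600) and 0.68 ± 0.15 (SE, shBrca2-CM, edgeR adjusted p = 2.37e-04). Without growth medium replicate 2 these values were 0.27 (edgeR adjusted p = 0.412) and 0.37 (0.0553), and neither was a call. The shControl-CM call was also lost with total counts in place of TMM (0.46, edgeR adjusted p = 0.133) and without shControl-CM replicate 2 (0.66, 0.115). Compared with each other, the conditioned media had a log2 difference of 0.11, with a 95% interval from -0.15 to 0.38 (edgeR adjusted p = 0.763).

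Of the receptors, *Bmpr1a*, a type I BMP receptor, rose with both conditioned media. It was at 10.8 and 7.74 CPM in growth medium, 23.7, 17.4 and 23.8 CPM with shControl-CM and 18.8, 18.7 and 26.6 CPM with shBrca2-CM. The growth medium libraries were the lowest of the 8, and the conditioned media shared one range. Its increase was 2.33-fold and 2.34-fold, with log2 fold changes of 1.22 ± 0.30 (SE, shControl-CM, edgeR adjusted p = 0.0129) and 1.23 ± 0.30 (SE, shBrca2-CM, edgeR adjusted p = 6.58e-04). The shControl-CM call was lost without growth medium replicate 2 (edgeR adjusted p = 0.158). The log2 difference between the conditioned media was 0.02, with a 95% interval from -0.60 to 0.63.

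*Bmpr2*, the type II BMP receptor, was seen by few counts, and no comparison called it. It had 18 and 10 counts in growth medium (3.13 and 2.15 CPM), 4, 2 and 0 with shControl-CM (2.56, 1.93 and 0 CPM) and 4, 7 and 4 with shBrca2-CM (5.79, 8.71 and 3.55 CPM). The shBrca2-CM libraries were the highest, and growth medium and shControl-CM overlapped. The log2 difference of shBrca2-CM from shControl-CM was 1.93, with a 95% interval from 0.21 to 3.64 (edgeR adjusted p = 0.303), and from growth medium 1.09 (edgeR adjusted p = 0.105). The latter passed the DE thresholds under 4 alternatives, with adjusted p-values from 0.0680 to 0.0903. That of shControl-CM from growth medium was -0.84 (edgeR adjusted p = 0.426).

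**Figure D2:**
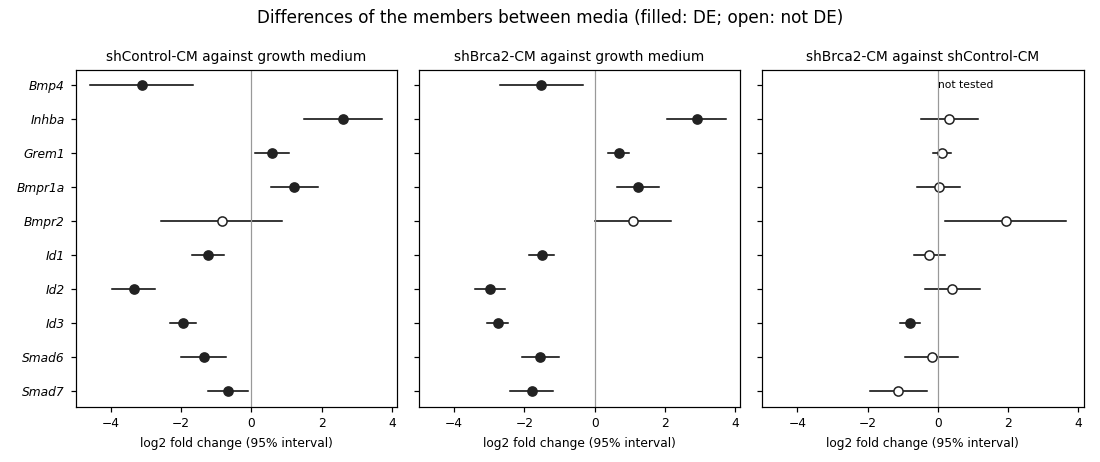
Log2 fold change (horizontal axis) of each BMP and activin gene in the 3 comparisons, with 95% intervals from edgeR as bars and filled points for DE genes. *Id2* lies furthest below 0 and *Inhba* furthest above it against growth medium, *Id3* is the 1 filled point between the conditioned media, and the *Bmp4* point for shControl-CM rests on 3 counts in that group, so that its position is no bound.

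The *Id* genes encode inhibitors of basic helix-loop-helix transcription factors and are widely used as readouts of BMP receptor activity. All 3 fell with both conditioned media. *Id3* was at 1246 and 923 CPM in growth medium. It was at 283, 274 and 294 CPM with shControl-CM and at 165, 172 and 144 CPM with shBrca2-CM. The 3 groups were separate from one another, with the lowest levels in shBrca2-CM. As means these were 1085 ± 228 CPM (SD, n = 2), 284 ± 10.3 CPM (SD, n = 3) and 160 ± 14.6 CPM (SD, n = 3). Against growth medium the log2 fold changes were -1.94 ± 0.17 (SE, shControl-CM, edgeR adjusted p = 3.69e-05) and -2.76 ± 0.15 (SE, shBrca2-CM, edgeR adjusted p = 8.31e-24). *Id3* was 1.75-fold lower with shBrca2-CM than with shControl-CM, a log2 fold change of -0.80 (SE 0.13, 95% interval -1.09 to -0.52, edgeR adjusted p = 0.00654). Leaving out any 1 library did not end this call.

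*Id2* was at 176 and 131 CPM in growth medium, 19.2, 17.4 and 8.83 CPM with shControl-CM and 24.6, 16.2 and 18.6 CPM with shBrca2-CM. Here both conditioned media were far below growth medium and overlapped each other. Log2 fold changes of -3.36 ± 0.28 (SE, shControl-CM, edgeR adjusted p = 3.02e-05) and -2.97 ± 0.21 (SE, shBrca2-CM, edgeR adjusted p = 2.13e-18) were found, 10.2-fold and 7.86-fold lower than growth medium. The log2 difference between the conditioned media was 0.40, with a 95% interval from -0.38 to 1.18 (edgeR adjusted p = 0.702). *Id1* moved less. It was at 211 and 143 CPM in growth medium, 71.8, 85.0 and 70.6 CPM with shControl-CM and 81.0, 49.8 and 58.6 CPM with shBrca2-CM. All 6 conditioned medium libraries were below both growth medium libraries. For *Id1* the log2 fold changes were -1.24 ± 0.20 (SE, shControl-CM, edgeR adjusted p = 0.00161) and -1.51 ± 0.18 (SE, shBrca2-CM, edgeR adjusted p = 3.27e-10). From one conditioned medium to the other it differed by -0.25, with a 95% interval from -0.69 to 0.20 (edgeR adjusted p = 0.680).

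The sequence just upstream of a transcript start is shown for *Id2* and *Id3*, the members with the largest decreases shared by both media apart from the sparsely counted *Bmp4*, and for *Inhba*, the member with the largest increase. RefSeq windows of 250 bases before the start were found for 8 of the 10 members, all but *Id1* and *Smad7*, and are given 5′ to 3′ on the strand of the gene (GRCm38.p6). Capitals mark matches, on either strand, to 6 motifs. The GC-rich core bound by SMAD1 and SMAD5 was searched as GGCGCC. For the SMAD box, a part of its palindrome that spans the centre was searched as GTCTAG, and a box with its flanking bases was searched as CAGACA. Both common forms of the E-box were searched, the first of them spelled CACGTG, while the second form of the element was spelled CAGCTG. The TATA box was searched as TATAAA.
*Id2*, chr12:25096093-25096342, minus strand: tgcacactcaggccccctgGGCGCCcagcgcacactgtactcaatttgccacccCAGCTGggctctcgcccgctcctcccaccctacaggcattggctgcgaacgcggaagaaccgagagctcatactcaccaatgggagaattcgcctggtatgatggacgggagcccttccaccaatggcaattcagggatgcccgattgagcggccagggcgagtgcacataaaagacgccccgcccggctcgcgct
*Id3*, chr4:136143572-136143821, plus strand: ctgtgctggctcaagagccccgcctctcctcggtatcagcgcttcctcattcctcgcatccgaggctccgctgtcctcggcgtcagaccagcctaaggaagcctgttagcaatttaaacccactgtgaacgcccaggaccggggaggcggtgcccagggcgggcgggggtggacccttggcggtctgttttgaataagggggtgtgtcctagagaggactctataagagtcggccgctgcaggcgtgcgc
*Inhba*, chr13:16011601-16011850, plus strand: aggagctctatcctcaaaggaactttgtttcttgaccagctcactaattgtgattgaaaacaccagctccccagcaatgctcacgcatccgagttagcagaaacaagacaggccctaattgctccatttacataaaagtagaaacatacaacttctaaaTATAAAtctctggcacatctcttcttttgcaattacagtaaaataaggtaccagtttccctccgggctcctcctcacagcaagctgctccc
The *Id2* window held GGCGCC with its first base 231 bases upstream of the start and CAGCTG 196 bases upstream. The *Id3* window held none of the 6 motifs, which says only that these letters were not in this window. The *Inhba* window precedes a start within the gene as RefSeq bounds it (chr13:16004256-16031609), not its outermost start. It held TATAAA 91 bases upstream and had 43.2% G and C, against 62.8% in the windows of *Id2* and *Id3*. Elsewhere among the members, GGCGCC was found in *Bmpr1a*, *Bmpr2* and *Grem1*, at 198, 105 and 78 bases, and CACGTG in *Bmp4*, at 188 bases. The *Bmpr1a* window (chr14:34502547-34502796) also precedes a start within its gene (chr14:34411061-34503336). Of 32851 RefSeq windows of the same length, 9.59% held the GC-rich core, 7.11% the part of the palindrome, 17.1% the SMAD box with flank, 6.02% the first and 13% the second E-box, and 12.4% the TATA box.

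The inhibitory Smads, which block receptors and receptor-activated Smads, also fell. *Smad6*, which acts mainly on BMP signalling, was at 38.8 and 35.3 CPM in growth medium, 18.6, 14.5 and 10.2 CPM with shControl-CM and 13.0, 12.4 and 12.4 CPM with shBrca2-CM. Both conditioned media were below growth medium and overlapped. Its log2 fold changes were -1.36 ± 0.29 (SE, shControl-CM, edgeR adjusted p = 0.00581) and -1.55 ± 0.27 (SE, shBrca2-CM, edgeR adjusted p = 2.62e-06), and the log2 difference between the conditioned media was -0.17, with a 95% interval from -0.93 to 0.58. *Smad7*, which also blocks TGF-β and activin receptors, was at 30.2 and 30.3 CPM in growth medium, 23.1, 15.5 and 18.3 CPM with shControl-CM and 4.34, 8.71 and 11.5 CPM with shBrca2-CM. Its 3 groups did not overlap, and the order was that of *Id3*. *Smad7* had log2 fold changes of -0.66 ± 0.26 (SE, shControl-CM, edgeR adjusted p = 0.0738) and -1.79 ± 0.30 (SE, shBrca2-CM, edgeR adjusted p = 2.33e-06). The shControl-CM call was lost without growth medium replicate 1 (edgeR adjusted p = 0.294) or replicate 2 (0.267), without shControl-CM replicate 2 (0.206) and with DESeq2's likelihood ratio test (0.145). Between the conditioned media the log2 difference of *Smad7* was -1.12, with a 95% interval from -1.95 to -0.30, which did not pass after adjustment (edgeR adjusted p = 0.193), at 3, 7 and 13 counts in the shBrca2-CM libraries.

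Of the growth medium libraries, replicate 1 was above replicate 2 for 8 of the 10 genes, all but *Bmp4* and *Smad7*. RefSeq places other genes over part of *Bmp4* (*Gm15217* and *Gm15222*), *Inhba* (*B230303A05Rik*) and *Smad7* (*Gm41776*), and since the strand setting of the counting was not given in the sources used here, reads of these overlaps cannot be told apart.

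The wider pathway was described by a list of 75 further genes, of which 44 were measured. Between the conditioned media 36 were tested, and 2 were higher and 1 lower with shBrca2-CM, 3 of 36 beside 3.13% of all genes. Over the 36 genes the median log2 difference was -0.05, beside 0.03 for all genes tested. The higher genes were a ligand subunit and a co-receptor, and the lower gene was an antagonist. *Inhbb*, which encodes the subunit of activin B, was at 47.4 and 39.1 CPM in growth medium, 21.8, 18.4 and 13.6 CPM with shControl-CM and 65.1, 61.0 and 56.8 CPM with shBrca2-CM. Its levels with shControl-CM were the lowest of the 3 groups and those with shBrca2-CM the highest. Between the conditioned media this was a log2 fold change of 1.78 ± 0.24 (SE, edgeR adjusted p = 0.00167). Against growth medium it was -1.28 with shControl-CM (edgeR adjusted p = 0.00537, a call lost without growth medium replicate 1, 0.105) and 0.48 with shBrca2-CM (edgeR adjusted p = 0.0348), under the fold threshold, although it passed under 4 alternatives with values up to 0.63. With shControl-CM the activin subunits thus moved in opposite directions, *Inhba* up and *Inhbb* down. *Rgmb*, a BMP co-receptor also known as DRAGON, was at 11.1 and 10.5 CPM in growth medium, 9.61, 18.4 and 8.83 CPM with shControl-CM and 34.7, 28.6 and 30.2 CPM with shBrca2-CM. Only the shBrca2-CM libraries stood above the others. With shBrca2-CM it was higher by 1.40 ± 0.33 on the log2 scale than with shControl-CM (SE, edgeR adjusted p = 0.0533), and the call was lost without any 1 of the shBrca2-CM libraries (0.190 to 0.214). Against growth medium *Rgmb* was DE with shBrca2-CM (1.51, edgeR adjusted p = 3.68e-06), and with shControl-CM its log2 difference was 0.12 (0.821).

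Of 10 other secreted antagonists tested between the conditioned media, 1 was DE, lower with shBrca2-CM, beside 3.13% of all genes DE and 1.55% DE and lower. This was *Nbl1*, an antagonist of the DAN family, which was at 322 and 278 CPM in growth medium, 486, 471 and 531 CPM with shControl-CM and 262, 261 and 243 CPM with shBrca2-CM. This gave a log2 fold change of -0.93 ± 0.12 between the conditioned media (SE, edgeR adjusted p = 0.00143) and 0.72 with shControl-CM against growth medium (edgeR adjusted p = 0.00626). *Nog*, which encodes noggin, had 0 counts in every shBrca2-CM library, 15, 6 and 8 with shControl-CM and 17 and 6 in growth medium. With a floor of 3 counts per library, the shControl-CM mean of 6.95 CPM was 1.60-fold over the highest shBrca2-CM floor, 4.34 CPM. Replicates 2 and 3 of shControl-CM, at 5.80 and 5.43 CPM, were closer to that floor, so this ratio is no strict bound. Between the conditioned media the edgeR adjusted p of *Nog* was 0.0265, but its mean normalized count of 3.68 was under the threshold of 5, so it was not DE. Against growth medium *Nog* was higher with shControl-CM (1.67, edgeR adjusted p = 0.0318), a call lost without growth medium replicate 2 (0.240) and with DESeq2's likelihood ratio test (0.102).

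**Figure D3:**
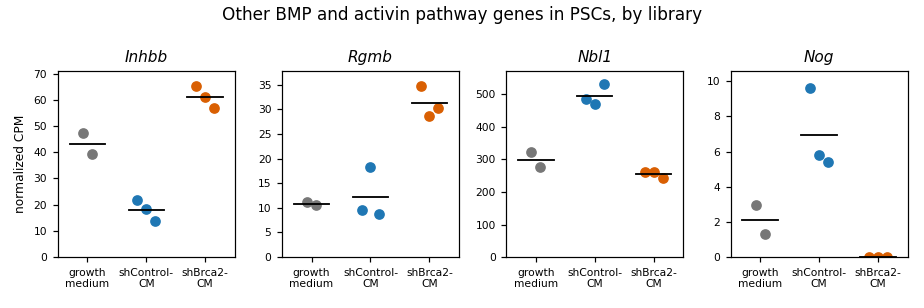
Expression of *Inhbb*, *Rgmb*, *Nbl1* and *Nog* in normalized CPM (vertical axes, each from 0), with 1 point per library and the group mean as a line. *Inhbb* and *Rgmb* are higher with shBrca2-CM than with shControl-CM, *Nbl1* is lower, and *Nog* is at 0 in the 3 shBrca2-CM libraries.

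**Figure D4:**
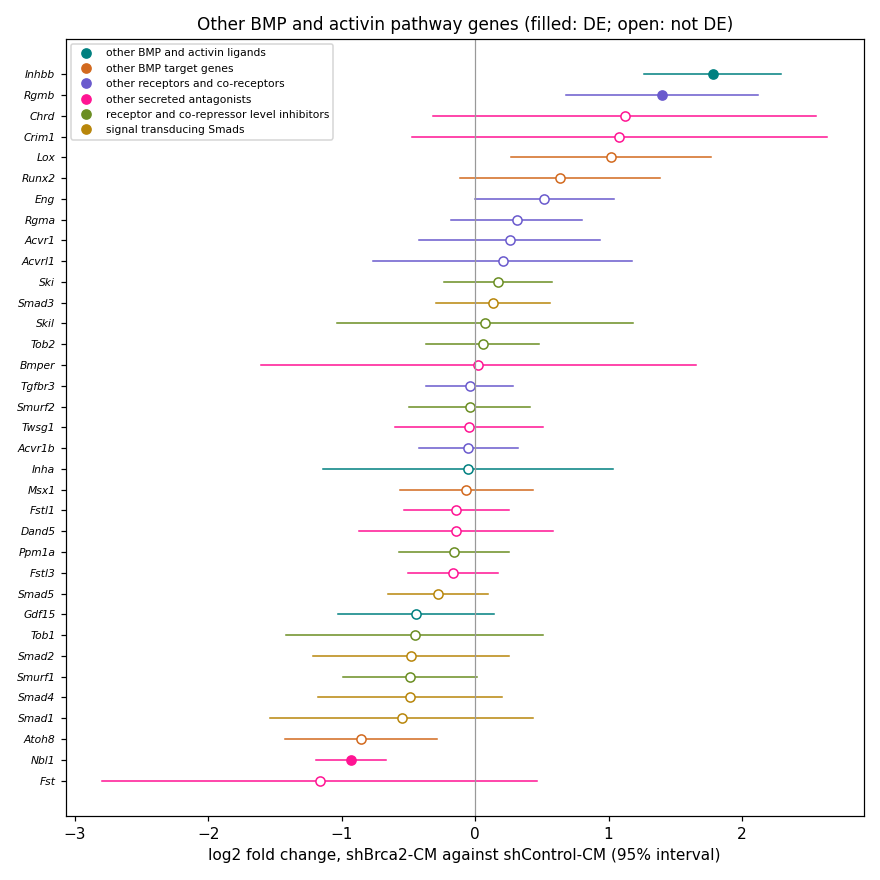
Log2 fold change from shControl-CM to shBrca2-CM (horizontal axis) for 35 of the 36 other pathway genes tested, coloured by role, with 95% intervals from edgeR as bars and filled points for DE genes. *Nog*, at 0 counts with shBrca2-CM, is left out, and the filled points are *Inhbb*, *Rgmb* and *Nbl1*.

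Against growth medium 43 genes of the wider list were tested. With shControl-CM 8 were higher and 8 lower, 16 of 43 beside 37.1% of all genes, and with shBrca2-CM 6 were higher and 9 lower, 15 of 43 beside 37.8%, so that the list was called about as often as genes in general. Their median log2 fold changes were -0.36 and -0.23, beside -0.10 and -0.05 for all genes tested. Of 7 other receptors and co-receptors 2 were higher and 1 lower with shControl-CM, and 4 were higher with shBrca2-CM. Among them, *Tgfbr3*, which encodes betaglycan and binds inhibins and several BMPs, was at 31.1 and 31.4 CPM in growth medium, 128, 106 and 111 CPM with shControl-CM and 103, 109.5 and 117 CPM with shBrca2-CM. It rose by 1.88 and 1.82 on the log2 scale (edgeR adjusted p = 8.59e-05 and 3.86e-13). *Acvr1b*, the type I activin receptor, rose from 32.0 and 34.4 CPM to at least 74.0 CPM with shControl-CM and at least 59.7 CPM with shBrca2-CM, log2 fold changes of 1.19 and 1.12 (edgeR adjusted p = 0.00117 and 1.89e-06). *Acvr1*, another type I receptor and named after its values were seen, was not DE, with log2 differences of -0.36 (edgeR adjusted p = 0.372) and -0.10 (0.756). *Acvrl1*, a type I receptor for BMP9 and BMP10, was DE with shBrca2-CM (1.02, edgeR adjusted p = 0.0874), a call lost under 6 alternatives. Of 6 signal transducing Smads, *Smad4*, the shared partner of both arms, was at 6.08 and 6.02 CPM in growth medium, 16.0, 26.1 and 21.7 CPM with shControl-CM and 11.6, 14.9 and 16.9 CPM with shBrca2-CM, and rose by 1.78 and 1.28 on the log2 scale (edgeR adjusted p = 0.00269 and 0.00218). The second DE gene of this group was *Smad5*, named after its values were seen, which was higher with shControl-CM (0.64, edgeR adjusted p = 0.0440), a call lost without growth medium replicate 2 (0.319).

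Of 7 other target genes tested, 1 was higher and 1 lower with shControl-CM, and 1 was higher and 2 lower with shBrca2-CM, 2 of 7 and 3 of 7 beside 37.1% and 37.8% of all genes. *Lox*, which encodes a collagen cross-linking enzyme, was at 304 and 359 CPM in growth medium, 51.9, 24.2 and 18.3 CPM with shControl-CM and 49.2, 84.6 and 57.7 CPM with shBrca2-CM. Its log2 fold changes from growth medium were -3.37 and -2.37 (edgeR adjusted p = 7.37e-05 and 2.28e-18). Between the conditioned media its log2 difference of 1.02 was not DE (edgeR adjusted p = 0.199), but it was DE without shControl-CM replicate 1 (1.61, edgeR adjusted p = 0.00322). *Msx1*, a homeobox gene, rose in contrast, with log2 fold changes of 0.81 and 0.75. The shControl-CM call for *Msx1* was lost without growth medium replicate 1 (edgeR adjusted p = 0.238) or without shControl-CM replicate 2 (0.125). Its shBrca2-CM call was lost when replicate number was added to the fit as a block (edgeR adjusted p = 0.108). *Atoh8*, a transcription factor gene, fell with shBrca2-CM (-1.46, edgeR adjusted p = 4.49e-07). With shControl-CM its log2 difference of -0.58 was not DE (edgeR adjusted p = 0.113), although it passed under 4 alternatives. Between the conditioned media *Atoh8* had a log2 difference of -0.86 that was not DE (edgeR adjusted p = 0.144), but was DE without shControl-CM replicate 1 (-1.07, 0.0187). *Tob1*, a repressor of BMP signalling, also fell, with log2 fold changes of -1.36 and -1.84 (edgeR adjusted p = 0.0172 and 1.11e-07), and the shControl-CM call was lost without growth medium replicate 1 (edgeR adjusted p = 0.130) or replicate 2 (0.148). *Smurf1*, which encodes a ubiquitin ligase for BMP-pathway Smads, was at 54.0 and 58.5 CPM in growth medium, 64.1, 87.0 and 117 CPM with shControl-CM and 52.1, 57.2 and 75.5 CPM with shBrca2-CM. It was DE and higher with shControl-CM (0.66, edgeR adjusted p = 0.0567), a call lost under 6 alternatives, among them without either growth medium library (0.281 and 0.206) and without shControl-CM replicate 2 (0.142) or replicate 3 (0.129). Between the conditioned media the log2 difference of *Smurf1*, -0.49, was not DE (edgeR adjusted p = 0.395), but was DE without shControl-CM replicate 1 (-0.71, 0.0511). *Gdf15*, a ligand gene of the wider TGF-β superfamily, was DE and lower with shBrca2-CM (-0.84, edgeR adjusted p = 0.00105). With shControl-CM it was not DE (-0.40, edgeR adjusted p = 0.169), although it passed under 3 alternatives. The log2 difference between the conditioned media, -0.44, was not DE either (edgeR adjusted p = 0.528).

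Of 12 other secreted antagonists, 2 were higher and 3 lower with shControl-CM than with growth medium, and 4 were lower with shBrca2-CM, 5 of 12 and 4 of 12 beside the same 37.1% and 37.8%. The decreases included genes of low counts. *Chrdl1*, a chordin-like BMP antagonist, had 41 and 26 counts in growth medium and 0, 1 and 1 in the libraries of either conditioned medium, too few for a fold change. It was DE with both (edgeR adjusted p = 0.00471 and 0.00107), and both calls were lost without either growth medium library. Like *Bmp4*, it passed the threshold on mean normalized count only through growth medium. *Fst*, which encodes the activin-binding protein follistatin, had 58 and 35 counts in growth medium, 12, 2 and 5 with shControl-CM and 2, 2 and 1 with shBrca2-CM, and was DE with shBrca2-CM (edgeR adjusted p = 0.00129, a call lost without growth medium replicate 1). *Crim1*, which encodes a BMP-binding transmembrane protein, had 84 and 55 counts in growth medium, 8, 3 and 1 with shControl-CM and 3, 2 and 12 with shBrca2-CM. It was DE in both comparisons (edgeR adjusted p = 0.00956 and 0.0282), but both calls were lost without growth medium replicate 1 (0.129 and 0.113), and that with shBrca2-CM also without replicate 1 (0.119) or replicate 2 (0.194) of its group, with DESeq2's likelihood ratio test (0.120) and with all 3 groups in one fit (0.122).

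Among the *Id* genes and inhibitory Smads, Pearson's r of log2 CPM over the 8 libraries was highest between *Id2* and *Smad6* (0.96) and lowest between *Id2* and *Smad7* (0.53). These values describe 3 groups of libraries and share each library's depth. Among 9525 other genes (9526 for *Bmp4*), *Sash1* was most similar to *Id1* (r = 0.99), followed by *Snhg4*, *Psmg1*, *Hoxb6* and *Gar1*. The gene most similar to *Inhba* was *Pde1a* (r = 0.98), followed by *Cnot2*, *Rfc5*, *Fbxo31* and *Als2cl*. *Chd8* (r = 0.97), *Ccnl1*, *Gm36712*, *Stk38* and *Trim11* were nearest to *Grem1*, and *Zfp384* (r = 0.98), *Ncoa1*, *Poli*, *Igf2* and *Trappc8* to *Bmp4*. For *Bmp4* the likeness rests on 78 counts in all, 69 of them in growth medium.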

How the data were processed

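Per the labels, 3′-end (MARS-seq) libraries were sequenced from 8 PSC domes. The deposited values are unnormalized read counts on 12160 genes, in 1 column for each library and without pooling. The submitters' processing notes name bcl2fastq, cutadapt, STAR 2.4.2a, HTSeq, DESeq2 and the mm10 build; the annotation, strand setting, gene filter and treatment of molecular identifiers were not given in the sources used here. A further per-sample column of the table (1), headed as a DMEM library, belongs to no labelled sample and was left out, so that growth medium has 2 libraries here. Samples were grouped by title. Domes came from a single cell line, so p-values refer to the spread between domes. In edgeR each gene's spread is drawn towards that of other genes, so they do not rest on its own libraries alone. They do not cover other cell or organoid lines.

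In R 4.3.3, edgeR 4.0.16 fitted every comparison on its own 2 groups by quasi-likelihood after TMM normalization, leaving out genes whose counts summed to under 10, with Benjamini-Hochberg adjustment over all genes tested. The scripts were tested on simulated data. As alternatives, DESeq2 1.42.0 (likelihood ratio test), scaling by size factors or by total counts, other filters, stricter thresholds, 1 fit of all groups, a replicate block and the omission of single libraries were run. The members and gene lists were chosen with earlier results of these data known. All members were named, and of the wider list those DE in at least 1 comparison, up to the 12 with the largest absolute log2 fold change in each; *Smad5* and *Acvr1* were added after their values were seen. The 5 genes nearest to *Bmp4*, *Grem1*, *Inhba* and *Id1* were taken among genes with a mean of at least 10 counts. Sequences and positions came from RefSeq (GRCm38.p6). A pathway gene was left out of the wider list and its counts and is not reported here.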

Additional observations from a re-analysis of the deposited data

How the results depend on the processing

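No called value of a member or of another named pathway gene changed direction under the alternatives that were run. Of 353 values of members, 332 kept their side of the thresholds, 17 lost the call and 4 gained it; of 683 values of other named pathway genes these numbers were 632, 35 and 16. Leaving out 1 library at a time gave 5 to 9 DE members with shControl-CM against growth medium, and 7 to 21 DE genes of the wider list (16 with all libraries). It gave 2 to 7 genes of that list between the conditioned media (3 with all libraries). Over all genes it gave 128 to 976 DE genes between the conditioned media (345 with all libraries) and 1901 to 5157 with shControl-CM against growth medium (4488). DESeq2 at the main thresholds called 1 member between the conditioned media. At stricter thresholds (adjusted p under 0.05, log2 fold change over 1 in size) edgeR called 0 members there. These thresholds left 1 gene of the wider list between the conditioned media and 9 with shControl-CM against growth medium, and 130, 2375 and 2185 of all genes between the conditioned media, with shControl-CM and with shBrca2-CM against growth medium. Total counts in place of TMM moved the median log2 fold change of all genes from 0.03 to 0.14 between the conditioned media and from -0.10 to -0.21 with shControl-CM against growth medium. The cause of these changes was not tested.

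No pairing by replicate number was seen. Same-numbered libraries of the conditioned media had correlations of -0.0305, -0.00689 and 0.123 after removal of group means. Those of differently numbered libraries ran from -0.161 to 0.181. With 3 libraries per group these values cannot exclude a pairing. With a replicate block 1, 9 and 9 members were DE between the conditioned media, with shControl-CM and with shBrca2-CM against growth medium, and in the last *Bmp4* was lost and *Bmpr2* gained. Among the other named genes it ended the calls of *Msx1* (edgeR adjusted p = 0.108) and *Acvrl1* (0.359) with shBrca2-CM and of *Smurf1* with shControl-CM (log2 fold change 0.40), each against growth medium, and it gained *Inhbb* with shBrca2-CM (0.55) and *Atoh8* (-0.72) and *Gdf15* (-0.58) with shControl-CM. The block gave 3, 17 and 13 genes of the wider list and 311, 4512 and 3850 of all genes. Low counts limit *Bmp4*, *Bmpr2* and *Nog*, which had 0 counts in at least 1 conditioned medium library.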
